A study of Homo sapiens with 4 samples.

Results

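Anchor pairs on the same chromosome whose midpoints lie more than 10 Mb apart were examined in SMC1 ChIA-PET data of Kelly cells, an established neuroblastoma line. The span alone chose them. They numbered 15511 in shBORIS and 15773 in shLUC, together 31255 different pairs of the 720049 listed in either table. The shBORIS group was a derivative of Kelly resistant to the ALK inhibitor TAE684, kept in 1 µM of it, exposed for 24 h to virus with an shBORIS construct and polybrene (8 µg/ml), with 48 h of puromycin selection after it. BORIS, also called CTCFL, is related in sequence to the insulator protein CTCF. The shLUC group had the same resistance, drug, infection and selection with the control construct. Each group had 2 libraries, which the authors pooled into 1 table, so that no value carries a replicate error and every test sets 1 pool against another pool or against a model, not the conditions. Both groups are resistant cells of 1 line, and whether the numbers in the library names mark different hairpins is not given in the sources used here.

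ChIA-PET ligates DNA ends that are held together by an immunoprecipitated protein and sequences both ends of the joined fragments as paired-end tags (PETs). SMC1 is a subunit of cohesin, the ring complex that extrudes chromatin loops, and such loops usually stop at CTCF sites well below the spans described here. Ligation also joins fragments that were never in contact, and PETs between chromosomes give a measure of this. In a tumour genome, a rearrangement can place distant segments of a chromosome side by side, which gives them the contact level of neighbours. Region pairs far above the level of their span are therefore candidates to follow up, and no breakpoint sequence was analysed here. Gene names were not used here, as no annotation of the hg19 build was at hand.

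On the 23 chromosomes examined there were 448788 PETs in shBORIS and 433843 in shLUC. Same-chromosome PETs numbered 163001 in shBORIS and 146105 in shLUC, and PETs between chromosomes 285787 and 287738 in the same order of groups. Pairs over 10 Mb held 15616 PETs in shBORIS, or 9.58% of its same-chromosome PETs, and 15873 in shLUC, or 10.9%. Their median span was 53.1 Mb in shBORIS and 53.2 Mb in shLUC, and 99.4% of the pairs in shBORIS and 99.5% in shLUC carried 1 PET. The PETs of each anchor between chromosomes predicted what random ligation alone would give to every pair, and observed over expected is the ratio of counted to predicted PETs, where 1 is the level of random ligation.

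Above 10 Mb nearly all PETs were at the level of random ligation. Observed over expected was 1.02 in shBORIS (95% interval 1.01 to 1.04) and 1.03 in shLUC (1.01 to 1.05), so that random ligation predicted 97.7% of the PETs in shBORIS and 97.1% in shLUC. All intervals cover counting error in the observed PETs only. In absolute terms the surplus was 352.1 PETs in shBORIS and 454.3 in shLUC. The ratio was far higher at short spans and had come down to this level by 10 Mb. In shBORIS it was 961.8 at 20 to 100 kb, 256.3 at 100 to 500 kb, 16.6 at 500 kb to 2 Mb and 1.26 at 2 to 10 Mb. In shLUC it was 880.0, 242.4, 16.0 and 1.25 in the same classes.

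Within the pairs over 10 Mb the ratio was 1.01 to 1.08 up to 80 Mb and about 1 beyond. At 10 to 20 Mb it was 1.04 in shBORIS (0.993 to 1.08) and 1.06 in shLUC (1.01 to 1.10). At 20 to 40 Mb it was 1.03 in shBORIS (1.00 to 1.07) and 1.08 in shLUC (1.05 to 1.12), the class with the largest surplus in shLUC, at 291.6 PETs. At 40 to 80 Mb it was 1.04 in shBORIS (1.01 to 1.07) and 1.01 in shLUC (0.985 to 1.05). From 80 to 120 Mb the ratios were 0.991 in shBORIS and 0.993 in shLUC, and above 120 Mb they were 1.00 and 0.997, with all 4 intervals including 1. The threshold itself marked no step. Just outside it, at 9.5 to 10 Mb, there were 121 PETs in shBORIS and 146 in shLUC, and just inside it, at 10 to 10.5 Mb, 104 in shBORIS and 127 in shLUC.

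**Figure D1:**
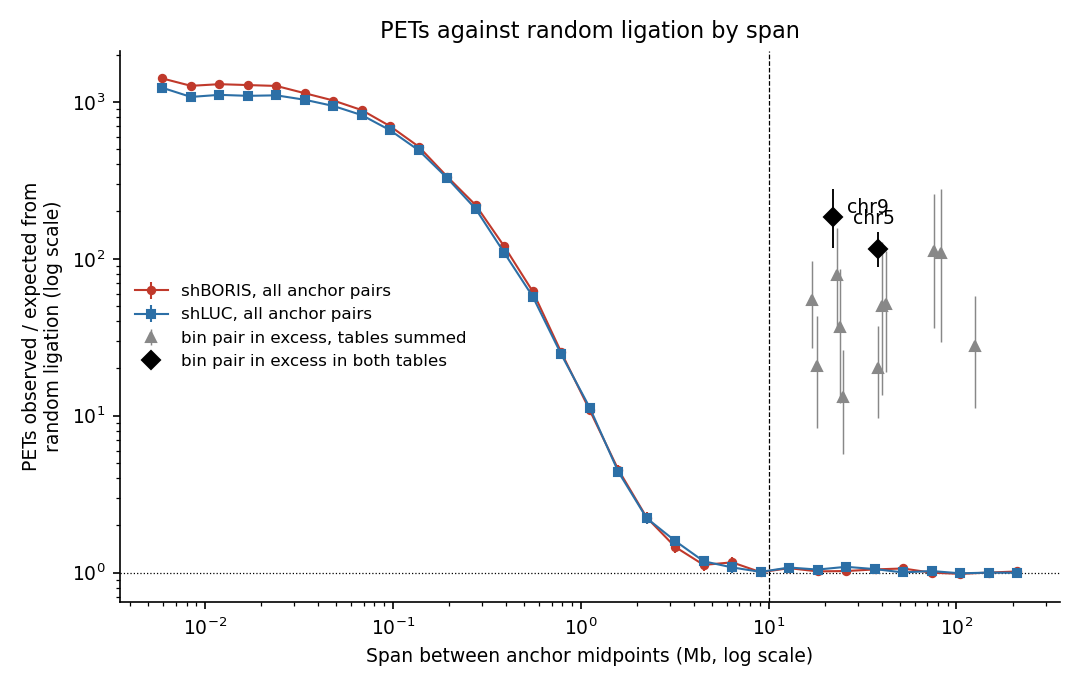
PETs observed over expected from random ligation (log scale) against the span of the anchor pair in Mb (log scale), for shBORIS and shLUC with exact 95% Poisson intervals. The dashed line marks 10 Mb, and triangles are 1 Mb bin pairs in excess with the tables summed. Diamonds are the 2 bin pairs in excess in each table, at 115 on chromosome 5 and 184 on chromosome 9. At their spans the curve has come down to about 1. For triangles and diamonds, unlike the curve, the random-ligation expectation was also multiplied by the observed over expected ratio of their span and arm class.

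The ends' surroundings made little difference to this level. Anchors were split by the median number of other anchors within 500 kb, which was 20. With both ends in dense surroundings observed over expected was 1.01 in shBORIS (0.989 to 1.04) and 1.01 in shLUC (0.988 to 1.04). With both ends in sparse surroundings it was 1.02 in shBORIS (0.981 to 1.06) and 1.02 in shLUC (0.986 to 1.06). With 1 end in each it was 1.03 (1.01 to 1.06) in shBORIS and 1.04 (1.02 to 1.07) in shLUC.

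As a share of same-chromosome PETs, pairs over 10 Mb were less frequent in shBORIS than in shLUC, with a scaled ratio of 0.882 (exact 95% interval 0.863 to 0.902). By class the scaled ratio was between 0.858 and 0.907, so all 5 classes lay below 1 on this scale. Scaled to the PETs between chromosomes the ratio was 0.991 (0.969 to 1.01), and between the observed over expected values of the groups it was 0.994 (0.972 to 1.02). Pairs over 10 Mb thus moved with the PETs between chromosomes, while same-chromosome PETs as a whole were more numerous in shBORIS.

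Pairs within a chromosome arm and pairs across the centromere differed by less than counting error at matched span. The comparison used the 19 chromosomes with anchors on both arms. Within an arm, observed over expected was 1.02 in shBORIS, from 7673 PETs, and 1.05 in shLUC, from 7936. Across the centromere it was 1.02 in shBORIS, from 7362 PETs, and 1.01 in shLUC, from 7356. Averaged over span classes, within over across was 0.972 in shBORIS (0.931 to 1.01) and 1.01 in shLUC (0.970 to 1.06). At 20 to 40 Mb the ratio across the centromere was 1.09 in shBORIS (1.01 to 1.17) and 1.12 in shLUC (1.05 to 1.21). There were 747 PETs in shBORIS, where 687.8 were expected, and 758 in shLUC, where 674.2 were expected. The chromosome 5 bin pair described below held 29 of them in shBORIS and 34 in shLUC, which is only part of the surplus.

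**Figure D2:**
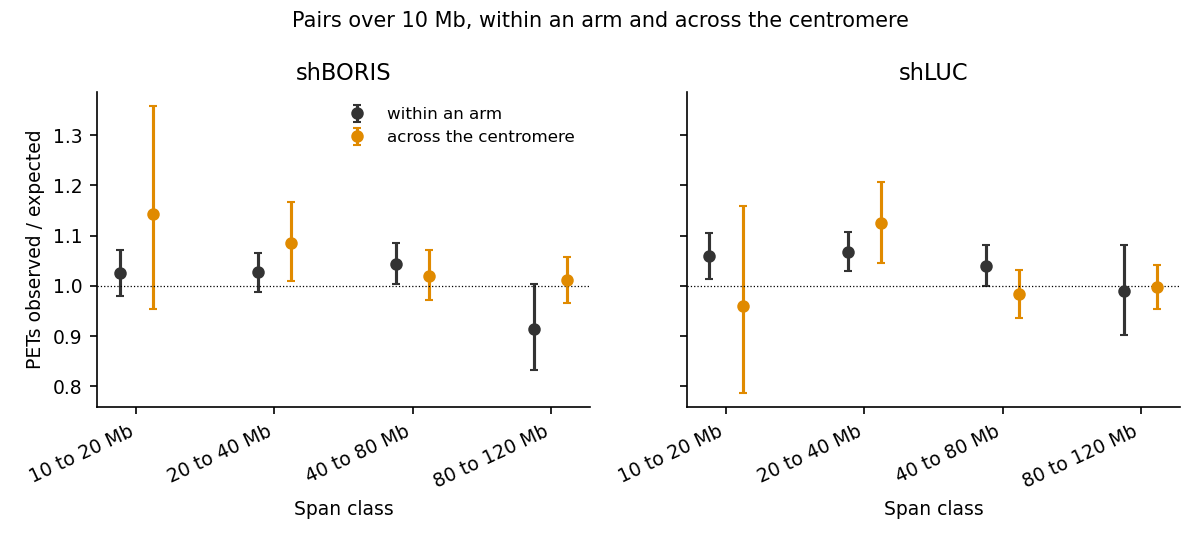
Observed over expected PETs of pairs over 10 Mb by span class, shBORIS on the left and shLUC on the right, within an arm (black) and across the centromere (orange), with exact 95% Poisson intervals. Within and across overlap in every class shown, and averaged over classes within over across is 0.972 in shBORIS and 1.01 in shLUC.

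By chromosome, observed over expected spread from 0.781 to 1.31 in shBORIS and from 0.849 to 1.34 in shLUC. Both low ends were chromosome 16, with 58 PETs in shBORIS (0.593 to 1.01) and 57 in shLUC (0.643 to 1.10). The high end in shBORIS was chromosome X, with 33 PETs (0.902 to 1.84). All of these intervals include 1. Less extreme ratios had intervals above 1 on chromosomes 1, 6 and 15 in shBORIS and on chromosomes 2 and 5 in shLUC. The highest of them was 1.15 on chromosome 15 in shBORIS (1.02 to 1.30). The intervals are not adjusted for the number of chromosomes. Chromosome 9 had the highest value in shLUC, with 205 PETs and a ratio of 1.34 (1.17 to 1.54), and in shBORIS it had 174 PETs and a ratio of 1.13 (0.966 to 1.31). Leaving out its bin pair in excess, described below, brought these to 1.08 in shBORIS and 1.24 in shLUC. Chromosome 4 was the one where the groups differed most by p, with 231 PETs and a ratio of 0.854 (0.747 to 0.971) in shBORIS and 324 PETs and a ratio of 1.11 (0.992 to 1.24) in shLUC. The ratio between them was 0.769 (0.647 to 0.914; exact binomial test, p = 0.00253, adjusted p = 0.0582 over the 23 chromosomes). With that test 0 of 23 chromosomes passed after adjustment (0.00%), and chromosome 4 alone had an unadjusted p under 0.05.

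To find places with more PETs than their span gives, each pair of 1 Mb bins was tested against the random-ligation expectation, multiplied by the factor of its span and arm class. In shBORIS 5 of 176587 bin pairs passed (0.00283%; exact one-sided Poisson test, adjusted p under 0.05), and in shLUC 6 of 176501 (0.00340%). The 2 that passed in both tables (0.00113%) lay, in the hg19 build, on chromosome 5, from 38 to 39 with 76 to 77 Mb, and on chromosome 9, at 101000001-102000000 with 123000001-124000000. The remaining bin pairs were close to counting error. The variance of PETs over their mean was 1.02 in shBORIS and 1.01 in shLUC without these 2 bin pairs. Bin pairs with 3 or more PETs numbered 551 in shBORIS, where 543.0 were expected, and 490 in shLUC, where 514.5 were expected. Single counts departed more in shLUC. It had 22 bin pairs with 5 PETs, where 37.5 were expected, and 32 with 6, where 16.4 were expected.

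**Figure D3:**
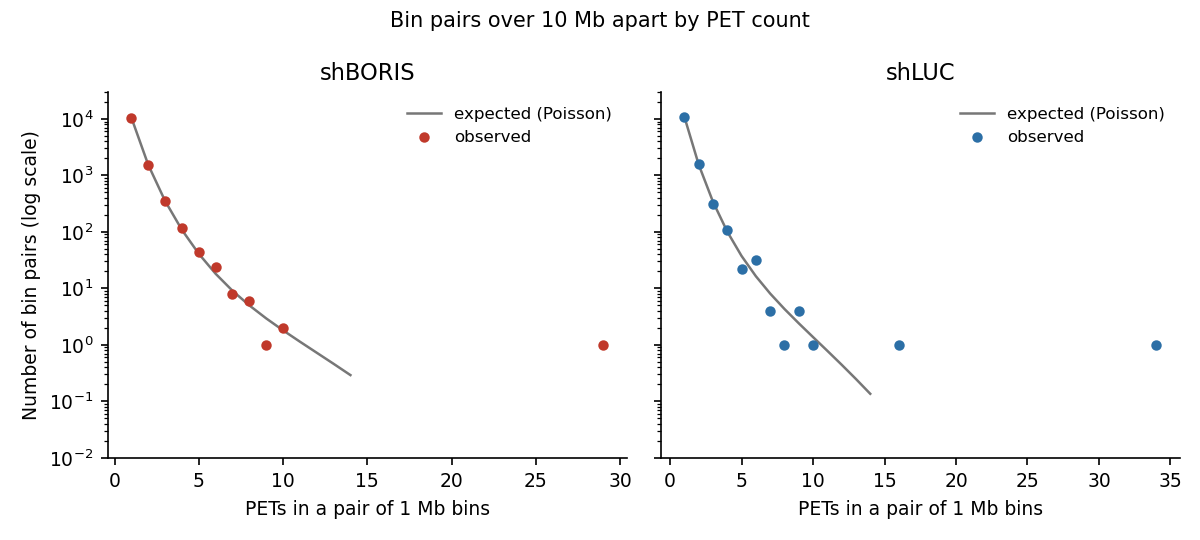
Number of 1 Mb bin pairs over 10 Mb apart (log scale) by the PETs they hold, for shBORIS on the left and shLUC on the right, with the Poisson expectation as a line drawn up to 14 PETs. The points at 29 PETs in shBORIS and at 34 and 16 PETs in shLUC lie apart from the line and are the chromosome 5 bin pair and, at 16, the chromosome 9 bin pair.

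The chromosome 5 region pair joined the short arm to the long arm across 38 Mb. The bin pair held 29 PETs in shBORIS, where 0.248 were expected, and 34 in shLUC, where 0.299 were expected. That is 117-fold in shBORIS (78.2 to 168; exact Poisson test, adjusted p = 4.46e-44) and 114-fold in shLUC (78.7 to 159; exact Poisson test, adjusted p = 6.82e-52). With the tables summed it was 115-fold, which lies between the genome-wide averages of pairs 100 to 500 kb apart and of pairs 500 kb to 2 Mb apart. This gives scale only. Those averages are of all anchor pairs against random ligation alone, while this bin pair was singled out for its high count. A difference between the groups was not detectable here. The bin pair's own test gave p = 0.615 (Fisher's exact test, adjusted p = 1), and over the region pair with 500 kb of margin the shBORIS to shLUC ratio, scaled to all PETs over 10 Mb, was 0.875 (0.524 to 1.46) from 31 PETs in shBORIS and 36 in shLUC.

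Its PETs were concentrated on a few anchors but were not the product of 1 pair. The 67 PETs of both tables fell on 28 anchor pairs, of 999 possible, with 13 of 37 anchors on the left and 13 of 27 on the right, and 5 of the 28 pairs were listed in both tables. The anchor at 38440511-38442963 took part in 38 of the 67 PETs. It joined 76439936-76441329 with 6 PETs in shBORIS and 8 in shLUC, the pair with the most PETs over 10 Mb when the tables are summed. It joined 76424831-76426173 with 8 PETs in shBORIS and 5 in shLUC, and 76163392-76164720 with 4 in shBORIS and 3 in shLUC. In shBORIS alone the pair with 76424831-76426173 had the most, and in shLUC alone the first was equalled at 8 by a chromosome 9 pair. The anchor at 38382421-38383748 reached the first 2 of these partners with 3 PETs each over both tables.

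Away from the top pair the PETs thinned out in both directions. Of the 67 PETs, 50 had both ends within 200 kb of the top pair's anchors. The outermost left anchors lay 604 kb below and 481 kb above that of the top pair, and the outermost right anchors 543 kb below and 864 kb above. The 3 left anchors farthest above the top pair's met right anchors that were also above, at 501, 828 and 864 kb, with 1 PET each. The left anchor farthest below met one that was 277 kb below, also with 1 PET. Other pairs had ends on opposite sides. A left anchor 20.8 kb below met a right anchor 348 kb above with 2 PETs in shLUC. Whether the positions on the left and right go together was not tested. Within the stretch examined, 4 further anchors below and 4 above the left range held none of these PETs, as did 4 below and 1 above the right range. In the narrower window named as an example when the pairs were chosen, there were 21 PETs in shBORIS and 30 in shLUC on 8 and 15 anchor pairs.

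The anchors of this region pair also had contacts of ordinary span. The left anchor at 38440511-38442963 had 45 PETs up to 10 Mb in shBORIS and 28 in shLUC, beside 18 and 20 to the partner region. On the right, the anchor at 76439936-76441329 had 9 PETs to the partner region in shBORIS and 12 in shLUC, against 6 and 4 to all anchors up to 10 Mb. The anchor at 76424831-76426173 had 11 to the partner region in shBORIS and 8 in shLUC, against 8 and 2 up to 10 Mb. These are the right anchors with the most PETs to the partner region, and both had more there than up to 10 Mb away. The next anchors did not: 76163392-76164720 had 6 to the partner region and 6 up to 10 Mb in shBORIS and 3 and 3 in shLUC, and 76372369-76374330 had 2 and 8 in shBORIS and 4 and 4 in shLUC. Between chromosomes 76439936-76441329 had 24 PETs in shBORIS and 23 in shLUC, and 76424831-76426173 had 24 in each group.

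The chromosome 9 region pair lay within the long arm across 22.03 Mb. Its bin pair held 7 PETs in shBORIS, where 0.0700 were expected, and 16 in shLUC, where 0.0548 were expected. That is 100-fold in shBORIS (40.2 to 206; exact Poisson test, adjusted p = 1.35e-07) and 292-fold in shLUC (167 to 474; exact Poisson test, adjusted p = 2.68e-29). The neighbouring bin pair, with the left bin directly below, had 3 PETs in shBORIS and 5 in shLUC, and passed in shLUC (exact Poisson test, adjusted p = 0.000112) and not in shBORIS (0.367). The lower count in shBORIS was within counting error. For the bin pair p was 0.0933 (Fisher's exact test, adjusted p = 0.982), and over the region pair with its margin the ratio scaled in the same way was 0.484 (0.204 to 1.07) from 10 PETs in shBORIS and 21 in shLUC. With each anchor pair counted 1 time, whatever its PETs, 4 remained in shBORIS and 5 in shLUC, and the adjusted p was 0.0536 in shBORIS and 0.000226 in shLUC (exact Poisson test).

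The PETs of the chromosome 9 region pair lay to 1 side of its anchors. All 31 PETs of both tables had their left end at or below the anchor at 101078912-101080277 and their right end at or above the one at 123110707-123112029. Within the stretch examined, the 16 anchors above that left limit and the 2 below that right limit held none. The 9 anchors below the left range and the 22 above the right range also held none. The 2 adjacent left anchors 101077288-101078822 and 101078912-101080277 joined 123110707-123112029 with 3 and 2 PETs in shBORIS and with 8 and 4 in shLUC. The other PETs reached down to 281 kb below on the left and up to 588 kb above on the right. The right anchor farthest above had 1 PET, in shLUC. All 31 PETs fell on 14 anchor pairs, with 8 left and 3 right anchors, and 3 pairs were listed in both tables. The right side rested on few anchors, and 123110707-123112029 took part in 22 of the 31 PETs. The narrower windows named as an example when the pairs were chosen held 6 PETs in shBORIS and 13 in shLUC.

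The 2 leading right anchors of chromosome 9 had 0 or 1 PET of ordinary span. The anchor at 123110707-123112029 had 7 PETs to the partner region in shBORIS and 15 in shLUC, against 0 and 1 to all anchors up to 10 Mb. The anchor at 123239293-123240279 had 3 in shBORIS and 5 in shLUC to the partner region and 0 in each group up to 10 Mb. Both were nonetheless sampled, with 19 PETs between chromosomes in shBORIS and 13 in shLUC for the first, and 5 and 7 for the second. On the left, 101077288-101078822 had 14 PETs up to 10 Mb in shBORIS and 17 in shLUC, beside 3 and 10 to the partner region.

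**Figure D4:**
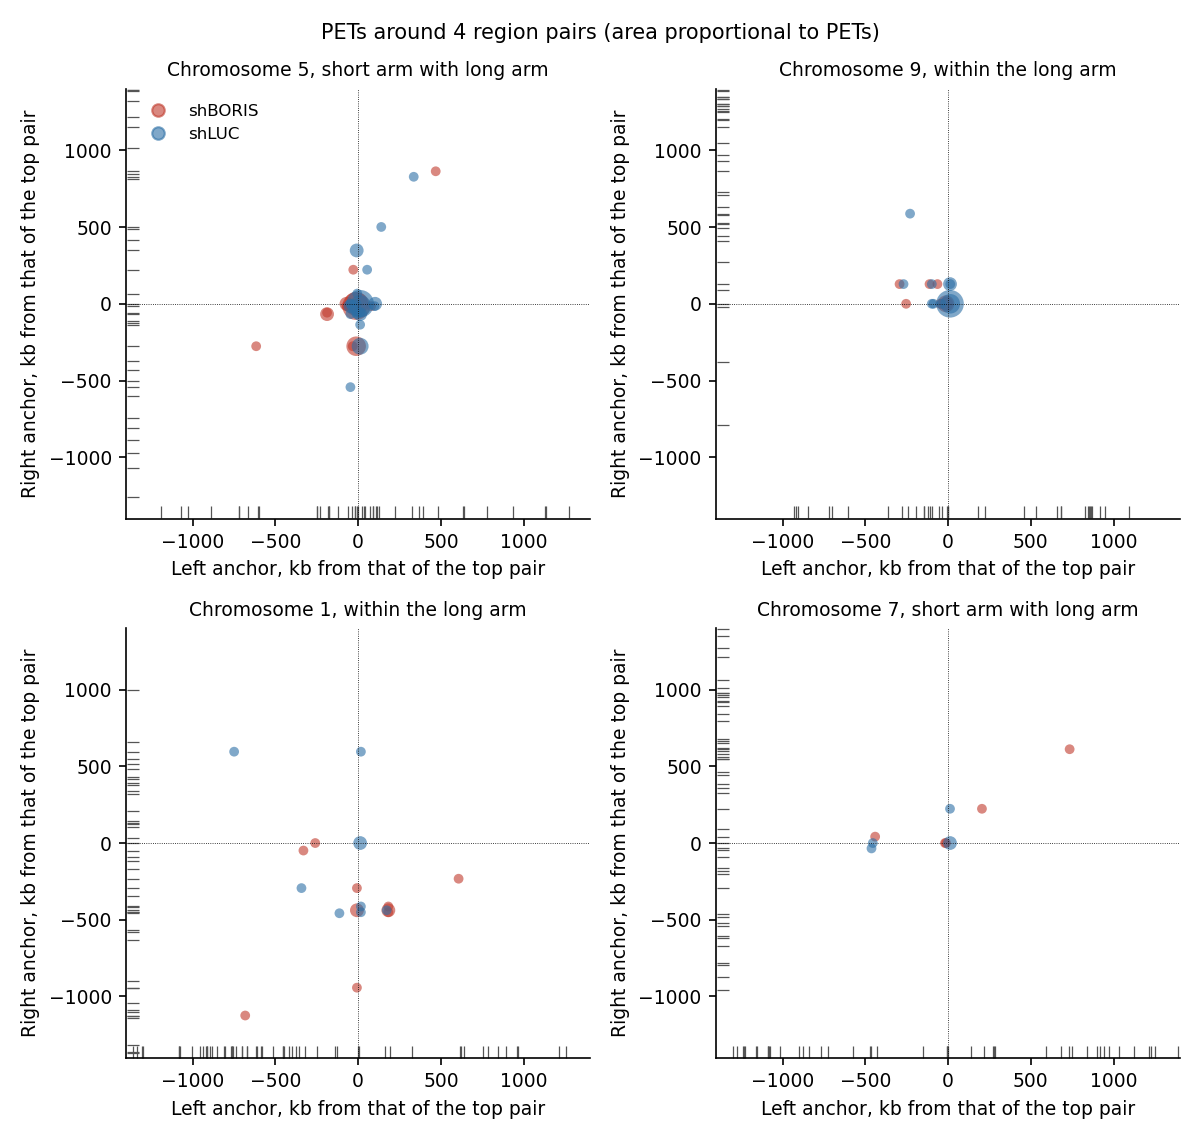
Each point is an anchor pair, placed by the distance in kb of its left anchor (horizontal) and right anchor (vertical) from those of the pair with the most PETs in that region pair, with area proportional to PETs; shBORIS (red) and shLUC (blue) points are drawn slightly to the left and right of their place, and ticks mark all anchors. On chromosome 9 all points lie at or left of 1.54 kb and at or above 0, whereas those of chromosome 5 spread to both sides; on chromosome 1 the zero point is 1 of 3 pairs with 2 PETs each.

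**Figure D5:**
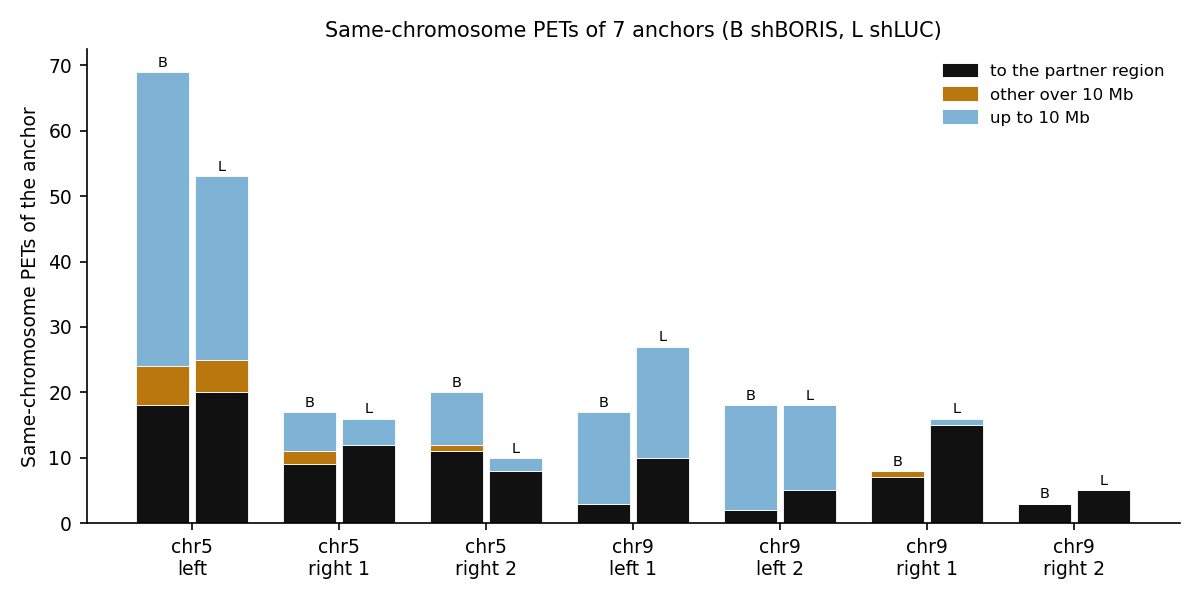
Same-chromosome PETs of 7 anchors of the chromosome 5 and chromosome 9 region pairs, shBORIS (B) left of shLUC (L), split into those to the partner region, others over 10 Mb and those up to 10 Mb. The first right anchor of chromosome 9 has 7 PETs to its partner region in shBORIS and 15 in shLUC, against 0 and 1 up to 10 Mb.

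With the PETs of both tables summed, a test added after the values were seen, 13 of 176588 bin pairs passed (0.00736%), in 10 region pairs. They held 73 PETs in shBORIS and 88 in shLUC, which was 71.5 and 86.4 above their own expectation. That excess is 20.3% of the surplus over 10 Mb in shBORIS and 19.0% of that in shLUC. The bin pairs were picked for high counts in these same PETs, which raises such shares. The 2 bin pairs called in both tables held 36 PETs in shBORIS and 50 in shLUC. Their excess of 35.7 and 49.6 PETs is 10.1% and 10.9% of the surplus. The other 8 region pairs rest on 4 to 21 PETs each and are named here because of those values. With each anchor pair counted 1 time, the bin pairs of chromosome 2, of chromosome 10 and of chromosome 7 at 32 with 115 Mb no longer passed. Other bins also ended calls of the summed test. The chromosome 11 pair did not pass with bins of 500 kb, bins of 2 Mb or bins shifted by 500 kb, the chromosome 7 pair at 32 with 115 Mb not with bins of 2 Mb or shifted bins, and the chromosome 2 pair and the chromosome 7 pair at 32 with 157 Mb not with bins of 2 Mb.

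On chromosome 1 the long-arm stretch from 213 to 214 Mb met 230 to 231 Mb with 7 PETs in shBORIS and 4 in shLUC, where 0.0859 and 0.116 were expected. It passed in shBORIS (exact Poisson test, adjusted p = 3.74e-07) and not in shLUC (adjusted p = 0.175), and with the tables summed it was 54.4-fold (27.2 to 97.3). It met 231 to 232 Mb with 3 PETs in shBORIS and 4 in shLUC. The PETs were spread widely. Over the region pair with its margin, 12 PETs in shBORIS and 9 in shLUC fell on 18 anchor pairs, none with more than 2 PETs, none listed in both tables, and with 11 anchors on each side. The anchor at 213547113-213548710 had 7 of the 21 PETs and that at 230908424-230909701 had 5. With bins shifted by 500 kb the pair from 213.5 to 214.5 with 230.5 to 231.5 Mb passed in each table, with 8 PETs in shBORIS and 5 in shLUC (exact Poisson test, adjusted p = 9.5e-08 and 0.0148). With bins of 2 Mb the pair from 212 to 214 with 230 to 232 Mb also passed in each table (exact Poisson test, adjusted p = 7.5e-06 and 0.0276). With bins of 500 kb, 213.5 to 214 with 230.5 to 231 Mb passed in shBORIS and not in shLUC (exact Poisson test, adjusted p = 1.2e-09 and 0.12).

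On chromosome 7 the short-arm stretch from 32 to 33 Mb met 157 to 158 Mb across 125.0 Mb, with 4 PETs in shBORIS and 3 in shLUC, where 0.133 and 0.117 were expected. It passed in neither table alone, and with the tables summed it was 28.0-fold (11.3 to 57.7; exact Poisson test, adjusted p = 0.000216). Its top pair, 32249914-32251025 with 157224623-157227052, had 1 PET in shBORIS and 2 in shLUC, and the other 7 anchor pairs of the region pair had 1 PET each, with left ends 474 kb below to 747 kb above those of the top pair and right ends 35.1 kb below to 612 kb above. With bins shifted by 500 kb this pair passed in each table, with 4 PETs in shBORIS and 5 in shLUC (exact Poisson test, adjusted p = 0.0478 and 0.000295). With those bins the pair from 98.5 to 99.5 with 157.5 to 158.5 Mb also passed in each table, with 4 PETs in shBORIS and 6 in shLUC (exact Poisson test, adjusted p = 0.0336 and 1.02e-05). That pair was not among the 13, and the bin pairs of 500 kb and 2 Mb there that passed with the tables summed passed in neither table alone (exact Poisson test, adjusted p = 1 in shBORIS and 0.12 to 0.19 in shLUC). The same 32 Mb bin met 115 to 116 Mb with 2 PETs in each group, all 4 at the anchor 32518832-32520074, and passed with the tables summed (exact Poisson test, adjusted p = 0.0013).

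On chromosome 9 the stretch from 92 to 93 Mb met 130 to 131 Mb, within the long arm, with 4 PETs in shBORIS and 6 in shLUC, where 0.260 and 0.236 were expected. It passed in shLUC (exact Poisson test, adjusted p = 0.00689) and not in shBORIS (adjusted p = 1). Of the 11 PETs in the region pair, 10 reached the right anchors 130894021-130894715 and 130897387-130898654, and the region pair as a whole had 7 left anchors. The call in shLUC was lost with the expectation scaled per chromosome (exact Poisson test, adjusted p = 0.129), with bins of 500 kb (0.12), with bins of 2 Mb (0.116) and with shifted bins (0.328). These right anchors had 2 PETs each up to 10 Mb in shBORIS, and 5 and 3 in shLUC.

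On chromosome 1 the short-arm bin from 120 to 121 Mb met the long arm at 144 to 145 Mb with 3 PETs in shBORIS and 2 in shLUC, and at 145 to 146 Mb with 2 in shBORIS and 6 in shLUC. The second passed in shLUC (exact Poisson test, adjusted p = 0.0196) and not in shBORIS (adjusted p = 1), and under a dispersion of 0.1 it did not pass in shLUC either (exact negative binomial test, adjusted p = 0.0611), nor with each anchor pair counted 1 time (exact Poisson test, adjusted p = 0.266). The 13 PETs of the region pair fell on 11 anchor pairs, and the anchor at 120413070-120414610 had 6 of them. Whether similar sequence on the 2 sides of this region pair bears on read placement was not tested.

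On chromosome 10 the bin from 46 to 47 Mb met 88 to 89 Mb with 4 PETs in shBORIS and 2 in shLUC, and passed in shBORIS (exact Poisson test, adjusted p = 0.0106) and not in shLUC (adjusted p = 1). With bins of 2 Mb the call in shBORIS was lost (exact Poisson test, adjusted p = 0.332). Its 2 leading anchor pairs had matching spacing. The second pair lay 11.4 kb above the first on the left and 11.4 kb above it on the right, so that both spanned 42.0 Mb. Whether similar sequence at the anchors bears on read placement was not tested, here or for any other region pair.

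The last 2 region pairs had PETs in 1 table alone at their bin pair. On chromosome 2, 8 to 9 Mb met 84 to 85 Mb with 5 PETs in shBORIS (exact Poisson test, adjusted p = 2.99e-06) and 0 in shLUC, all 5 at the right anchor 84249515-84250764. On chromosome 11, 1 to 2 Mb met 41 to 42 Mb with 0 PETs in shBORIS and 4 in shLUC (exact Poisson test, adjusted p = 0.00687), on 4 different anchor pairs. A count of 0 allows up to 3 PETs. The chromosome 2 pair did not pass the test between the groups after adjustment (Fisher's exact test, p = 0.03, adjusted p = 0.641), and the chromosome 11 pair was below the 5 PETs needed for that test.

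No bin pair over 10 Mb passed the test between shBORIS and shLUC. Of 410 bin pairs with at least 5 PETs over both tables, 0 were called by Fisher's exact test (0.00%), where the adjusted p was at least 0.641. Before adjustment 20 had a p below 0.05. The 6 bin pairs with the smallest p each had 6 PETs in shBORIS and 0 in shLUC, which shows how large a difference this depth leaves below the threshold. They lay on chromosomes 1, 17 and 20, in bin pairs with 1.34 to 5.60 expected PETs in shBORIS. As shBORIS had fewer PETs over 10 Mb than shLUC, this test gives 6 and 0 a smaller p than 0 and 6. Their shared direction is thus no sign of a lean towards shBORIS.

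Spread over anchors, the PETs over 10 Mb reached 17057 of 39371 anchors in shBORIS and 17292 of 39393 in shLUC, with a median of 1 PET per anchor that had any. Anchors with 5 or more numbered 875 in shBORIS, where 923.0 were expected, and 858 in shLUC, where 914.7 were expected. Anchors with 5 or more were thus no more numerous than predicted from PETs between chromosomes. The anchor at 244209580-244222793 on chromosome 1 had 21 in shBORIS, against 25.77 expected, and 31 in shLUC, against 23.04 expected. In shBORIS 4 anchors exceeded their expectation (0.0102%; exact Poisson test, adjusted p under 0.05), and in shLUC 6 did (0.0152%).

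The 3 anchors that passed in both tables (0.00763%) all belonged to the chromosome 5 and chromosome 9 region pairs. The anchor at 38440511-38442963 on chromosome 5 had 24 PETs over 10 Mb in shBORIS and 25 in shLUC, where 4.26 and 4.88 were expected. Its partner at 76439936-76441329 had 11 in shBORIS and 12 in shLUC, where 1.24 and 1.25 were expected. The chromosome 9 anchor at 123110707-123112029 had 8 in shBORIS and 15 in shLUC, where 0.542 and 0.367 were expected. When the PETs of the 2 bin pairs were left out, 0 anchors passed in both tables.

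Pairs with 2 PETs numbered 88 in shBORIS and 77 in shLUC, where 11.1 and 10.2 were expected. Of these, 78 in shBORIS and 69 in shLUC lay outside the 13 bin pairs. All pairs with 2 PETs made up 0.567% of the pairs over 10 Mb in shBORIS and 0.488% in shLUC, beside 0.489% and 0.403% of the pairs between chromosomes. Whether PCR copies are among these was not tested, since the tables hold no molecular identifiers. All 4 pairs with 3 or more PETs in shBORIS and all 5 in shLUC were listed in both tables and lay in the 2 bin pairs of chromosomes 5 and 9. In all 29 pairs were listed in both tables, where 19.2 were expected, 14 of them in the 13 bin pairs.

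The authors' Bayes probability was low for nearly all of these pairs, with a median of 0.008 in each group. It reached 0.9 for 75 pairs in shBORIS and 63 in shLUC, of which 7 and 9 lay in the 2 bin pairs of chromosomes 5 and 9. With at least 3 PETs as well, 4 pairs remained in shBORIS and 5 in shLUC. For the top pair of chromosome 5 it was 0.994 in shBORIS and 0.999 in shLUC, and for that of chromosome 9 it was 0.962 in shBORIS and 0.998 in shLUC.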

How the data were processed

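SMC1 ChIA-PET libraries of shBORIS and shLUC Kelly cells, 2 per group, were deposited by the authors as 1 pooled table per group. PETs per anchor pair are whole-number counts, named so per the file headers. The deposited p-value of each pair was not used, and the Bayes probability is a deposited fraction from 0 to 1. The shBORIS table lacks a header, and its columns were taken to follow those of shLUC. Tools named in the submitters' processing notes include cutadapt 1.8 and Bowtie, on hg19. The program that scored pairs is not given in the sources used here. Starts were taken as counted from 0 and are printed counted from 1.

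Of 39507 anchors, 39466 lay on the 23 chromosomes used. Each anchor got a weight such that products of weights over chromosome pairs returned its PETs between chromosomes, and products of weights gave the expected PETs of same-chromosome pairs. Span classes began at 10, 20, 40, 80 and 120 Mb. Arms were split at the middle of the hg19 centromere gaps, entered by hand. Bins were 1 Mb wide. Intervals are exact at 95% (Poisson or Clopper-Pearson), except for the within over across ratio averaged over classes, a normal approximation. They and the one-sided limit of 3 counts behind a 0 cover counting error in the observed PETs only. PETs amplified by PCR are not independent molecules, and the expectation was treated as known. P-values were adjusted by Benjamini-Hochberg over all features of a test, with a threshold of 0.05.

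Named regions are those in excess in both tables, the 2 given as examples with the definition of the pairs, the leading anchor pairs and anchors, chromosomes, and others said to be named after their values were seen. The pairs, examples and tests were chosen with earlier results of these data known. Python 3.11.15, pandas 2.3.3, NumPy 2.4.6, SciPy 1.17.1 and Matplotlib 3.10.9 were used.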

Additional observations from a re-analysis of the deposited data

How the results depend on the processing

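Of 38 alternatives over 8 results, 33 kept their direction, their side of the threshold or their range, 1 lost the threshold and 4 moved. The ratio of shBORIS to shLUC over 10 Mb was 0.991 when scaled to PETs between chromosomes, where its interval included 1. Bin pairs in excess in both tables numbered 5 with bins shifted by 500 kb and 1 with each anchor pair counted 1 time. Of the 2 main bin pairs, both were kept under the shift and 1 under the second, and the cause was not tested. With bins of 500 kb and with bins of 2 Mb the pairs in excess numbered 3 each, and both main bin pairs were kept. A test of the summed tables, added after seeing the data, called 13 bin pairs, of which 2 were in excess in each table. Anchors in excess in both tables numbered 0 without the PETs of those bin pairs, which follows from their removal. Alternatives without the anchors listed in 1 table alone, 40 in all, gave 2 bin pairs and a ratio of 0.882. The longest anchor-free stretch lay within 5 Mb of the centromere on 15 of 19 chromosomes. At the median expectation of a bin pair, 0.0259 in shBORIS and 0.0281 in shLUC, 4 PETs were needed in 1 table to pass alone. Bin pairs that held PETs had a higher median expectation, 0.220 in shBORIS and 0.219 in shLUC, where 6 were needed. Weaker places could not be detected at this depth. No paired analysis was possible because the 2 libraries of a group share 1 pooled table, and no replicate could be left out.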
